A study of Mus musculus with 12 samples.

Results

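10 genes of the Notch pathway were followed in primary mouse skin fibroblasts: the receptors Notch1, Notch2, Notch3 and Notch4, the Jagged ligands Jag1 and Jag2, and the targets Hes1, Hey1, Hey2 and Heyl. They were chosen by name, as 10 of the 21556 genes in the deposited table of read counts. Notch receptors are single-pass membrane proteins that bind ligands of the Jagged and Delta-like families on a neighbouring cell. Binding leads to cleavage by ADAM proteases and then by γ-secretase, and the freed intracellular part enters the nucleus, joins the DNA-binding protein Rbpj and Mastermind coactivators, and switches on genes of the Hes and Hey families, which encode repressors. In skin the pathway is best known for keratinocyte differentiation and for vessels, where Notch4 is typical of endothelial cells and Notch3 of the mural cells around them, and it also acts in fibroblasts.

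The fibroblasts came from abdominal skin of WT mice (C57BL/6) and of Nox4 KO mice (strain B6.129-Nox4tm1Kkr/J), whose gene for the hydrogen peroxide producing NADPH oxidase Nox4 was disrupted in every cell. Cells were expanded in culture, deprived of serum, and either left unstimulated (control) or given the growth factor TGF-β2, which turns fibroblasts into contractile myofibroblasts, at 10 ng/ml for 24 h. RNA was sequenced from 3 libraries in each of the groups WT control, WT TGF-β2, Nox4 KO control and Nox4 KO TGF-β2, 12 in all. The methods state that WT and Nox4 KO mice descended from littermates bred into separate litters. The age of the skin donors is not given in the sources used here. Neither the labels nor the methods say whether the libraries of a group came from separate animals, so p-values measure the spread between these libraries, which may be partly technical.

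Libraries held 35118344 to 43796260 counted reads. All 8 fibroblast markers were at 1 RPKM (reads per kilobase of merged exons, scaled to the total of the library) or more in every group. Reads on Nox4, the targeted gene, were present in all libraries, at 1.31 to 2.42 RPKM in WT control and 0.636 to 1.399 RPKM in Nox4 KO control, and at 8.56 to 16.3 RPKM in WT TGF-β2 and 4.39 to 6.85 RPKM in Nox4 KO TGF-β2. Counts per gene do not separate the deleted exons from the rest, so they do not check the knockout. The second WT TGF-β2 library stood apart from the others. Its long transcripts (8000 bases or more) were low relative to its short ones (under 1500 bases), with a balance of -1.026 (the median log2 deviation from the mean of all libraries, long minus short), whereas the other 11 libraries lay between -0.089 and 0.24.

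By level, Hes1, Jag1 and Notch2 led in every group and Jag2 and Heyl were at the bottom of both control groups. In WT control the order by mean was Hes1 (33.9 RPKM), Jag1 (11.1), Notch2 (10.7), Notch3 (4.42), Notch1 (3.00), Hey2 (1.49), Notch4 (0.812), Hey1 (0.678), Heyl (0.0612) and Jag2 (0.0523). Of these neighbours, Jag1 and Notch2, Notch3 and Notch1, Notch4 and Hey1, and Heyl and Jag2 had overlapping libraries. After TGF-β2 in WT, the order was Jag1 (43.3 RPKM), Hes1 (40.2), Notch2 (9.16), Notch4 (4.15), Notch1 (2.04), Hey2 (1.32), Notch3 (1.04), Heyl (0.519), Hey1 (0.416) and Jag2 (0.0255). Here Jag1 and Hes1, Notch1 and Hey2, Hey2 and Notch3, and Heyl and Hey1 overlapped. The overlap of Jag1 and Hes1 rested on the second library (Jag1 at 32.7 RPKM and Hes1 at 49.8 RPKM), and in the first and the third Jag1 (47.6 and 49.6 RPKM) lay above Hes1 (34.9 and 35.9 RPKM). Notch3 and Notch4 exchanged places among the receptors. Nox4 KO cells had the same leading genes, with Hes1 (36.9 RPKM), Notch2 (10.1) and Jag1 (9.55) first in control and Jag1 (47.4), Hes1 (34.8) and Notch2 (11.1) first after TGF-β2, where every Jag1 value also lay above every Hes1 value. Further down, the Nox4 KO control means were 3.23 RPKM for Notch3, 2.51 for Notch1, 1.36 for Hey2, 0.539 for Hey1 and 0.4999 for Notch4, and those after TGF-β2 were 2.94 for Notch4, 2.45 for Notch1, 1.53 for Hey2, 1.12 for Notch3, 0.525 for Hey1 and 0.435 for Heyl. Only Notch2 and Jag1, Notch3 and Notch1, Hey1 and Notch4, and Jag2 and Heyl overlapped as neighbours in Nox4 KO control, and after TGF-β2 Notch4 overlapped Notch1, Notch1 overlapped Hey2, Hey2 overlapped Notch3 and Hey1 overlapped Heyl.

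**Figure D1:**
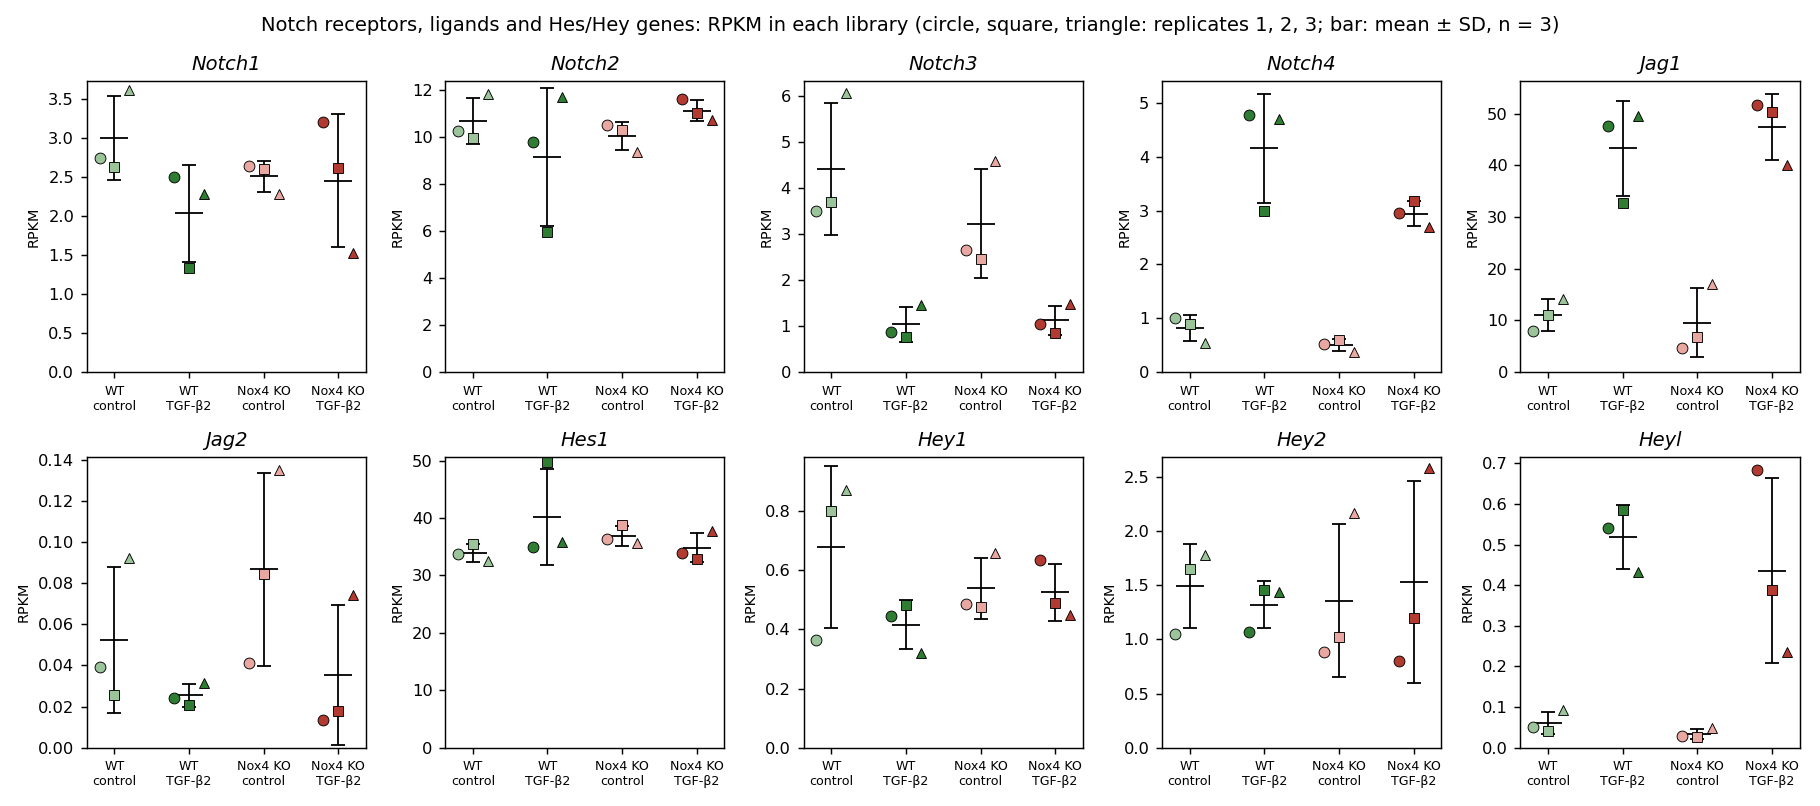
RPKM (y axis, linear, from 0) of each of the 10 genes in the 12 libraries, with circles, squares and triangles for replicates 1, 2 and 3 and bars for the mean ± SD of 3 libraries per group. Jag1, Notch4 and Heyl lay higher in all TGF-β2 libraries than in all control libraries of the same genotype, and Notch3 lay lower.

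Testing was limited to genes that averaged 1 RPKM or more in 1 of the groups compared. 7 of the 10 genes did so for TGF-β2 against control, in either genotype, and Jag2, Hey1 and Heyl did not. In WT, 3 of these 7 passed, that is, they had an adjusted p-value (Benjamini-Hochberg) under 0.05 in edgeR's quasi-likelihood test, and so did 22.9% of all 10743 genes tested (10.6% higher and 12.3% lower). The same 3 passed in Nox4 KO, beside 30.3% of 10809 genes (15.2% higher and 15% lower). Jag1 and Notch4 rose and Notch3 fell in both genotypes. Since 7 genes is a small number, the shares are given as a description only. With a fold change of at least 2 required in addition, these 3 still passed, beside 2.64% of all genes among the rises and 5.1% among the falls of WT, and 2.22% and 4.6% among those of Nox4 KO. The median log2 fold change of the 7 genes was -0.14 in WT and 0.23 in Nox4 KO, beside -0.003 and -0.014 for all genes tested.

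The promoters of the 3 genes that changed, and that of Hey2, are shown so that the 2 genes that rose and the 1 that fell can be compared, beside a target whose window held the Rbpj core. They are the 250 bases before the RefSeq start of each gene (build GRCm38.p6), written 5′ to 3′ on the strand of the gene. 7 of the 10 genes had a RefSeq window. Capitals mark matches to TGGGAA, the core of the Rbpj site, and to GGAATG, bound by TEAD proteins. The windows lie at chr2:137116521-137116770 (minus strand) for Jag1, chr17:34564045-34564294 (plus strand) for Notch4, chr17:32166891-32167140 (minus strand) for Notch3 and chr10:30842784-30843033 (minus strand) for Hey2.

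Jag1: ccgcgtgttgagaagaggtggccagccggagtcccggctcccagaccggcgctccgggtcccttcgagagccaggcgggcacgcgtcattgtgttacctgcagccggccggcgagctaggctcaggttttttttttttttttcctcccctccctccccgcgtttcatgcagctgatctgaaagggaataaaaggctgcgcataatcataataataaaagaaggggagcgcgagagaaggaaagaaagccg
Notch4: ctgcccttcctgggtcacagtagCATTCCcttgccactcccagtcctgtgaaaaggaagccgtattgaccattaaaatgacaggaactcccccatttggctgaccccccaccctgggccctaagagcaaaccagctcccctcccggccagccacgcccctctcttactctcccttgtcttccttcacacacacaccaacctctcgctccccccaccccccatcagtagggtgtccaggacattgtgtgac
Notch3: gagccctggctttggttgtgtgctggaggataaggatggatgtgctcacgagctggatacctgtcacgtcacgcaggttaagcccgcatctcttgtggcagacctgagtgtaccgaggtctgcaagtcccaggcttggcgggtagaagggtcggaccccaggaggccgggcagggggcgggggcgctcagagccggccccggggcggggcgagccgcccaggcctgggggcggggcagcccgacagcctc
Hey2: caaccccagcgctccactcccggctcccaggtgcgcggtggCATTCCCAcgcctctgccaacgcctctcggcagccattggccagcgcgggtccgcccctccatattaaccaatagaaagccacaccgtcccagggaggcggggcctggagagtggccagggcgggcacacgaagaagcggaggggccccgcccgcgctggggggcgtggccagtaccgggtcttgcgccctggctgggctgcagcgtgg

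6 motifs were searched on both strands. TGGGAA occurred in 21.6% of 32536 windows of the same length, GGAATG in 12.6%, the SMAD box GTCTAGAC in 0.169%, its shorter form CAGACA in 17.0%, the E-box CACGTG in 6.04% and the AP-1 site TGANTCA in 6.73%. Among the 7 windows, TGGGAA was found only in Hey2, on the opposite strand at position -207 from the start, where it overlapped a GGAATG match at -209. GGAATG was also found in Notch4, at -227, and in Notch1, at -233 and -216. These letters are matches, not shown binding sites. No match to any of the 6 motifs was present in the Jag1 and Notch3 windows.

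Jag1 (ENSMUSG00000027276; chromosome 2, 137081456 to 137116644, minus strand), the ligand that presents Jagged1 to receptors on neighbouring cells, showed the highest level after TGF-β2. In WT control it was at 7.95, 11.1 and 14.2 RPKM, and in WT TGF-β2 at 47.6, 32.7 and 49.6 RPKM. In Nox4 KO control it was at 4.71, 6.82 and 17.1 RPKM, and in Nox4 KO TGF-β2 at 51.8, 50.4 and 40.1 RPKM. The groups did not overlap in either genotype, and the third control library was the highest of its group in both. The mean went from 11.1 ± 3.12 to 43.3 ± 9.25 RPKM (SD, n = 3) in WT, a log2 fold change of 2.01 (standard error, SE, 0.25; Benjamini-Hochberg adjusted p = 0.00279, edgeR). In Nox4 KO it went from 9.55 ± 6.65 to 47.4 ± 6.39 RPKM (SD, n = 3), a log2 fold change of 2.41 (SE 0.48, adjusted p = 0.0153, edgeR). By fold change, Jag1 stood at place 78 from the top of 10743 genes in WT and 49 of 10809 in Nox4 KO. The Nox4 KO call depended on single libraries: without the second control library the log2 fold change was 2.23 (adjusted p = 0.0561, edgeR) and without the second TGF-β2 library 2.36 (adjusted p = 0.0575, edgeR). Of all genes tested, 16.6% and 10.7% passed in those fits, beside 30.3% with all libraries. Without the third control library, which was nearest to the stimulated ones, the log2 fold change of Jag1 was 3.11 (adjusted p = 0.00434, edgeR), where 25.3% of all genes passed.

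Jag2 (ENSMUSG00000002799; chromosome 12, 112907819 to 112929776, minus strand), the other Jagged ligand, was barely detected. Between 5 and 19 reads were counted in WT control, 4 to 6 in WT TGF-β2, 8 to 25 in Nox4 KO control and 3 to 16 in Nox4 KO TGF-β2. This corresponds to at most 0.135 RPKM in any library, and the groups overlapped in each comparison. The Delta-like ligands, which use the same receptors, were also at the limit of detection, with at most 24 reads for Dll1, 2 for Dll3 and 3 for Dll4 in any library. Jag1 was thus the only canonical Notch ligand of the 5 counted here that reached 1 RPKM.

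Notch4 (ENSMUSG00000015468; chromosome 17, 34564268 to 34588503, plus strand), the receptor typical of endothelial cells, was at 1.00, 0.895 and 0.538 RPKM in WT control and at 4.77, 2.98 and 4.71 RPKM in WT TGF-β2. In Nox4 KO control it was at 0.527, 0.593 and 0.380 RPKM and in Nox4 KO TGF-β2 at 2.96, 3.17 and 2.70 RPKM. All stimulated libraries were above all control libraries, and the third control library was the lowest of its group in both genotypes. Notch4 rose by 2.4 on the log2 scale in WT (SE 0.31, adjusted p = 0.00320, edgeR) and by 2.64 in Nox4 KO (SE 0.19, adjusted p = 0.00148, edgeR). These were the places 47 from the top of 10743 genes and 38 of 10809. When single libraries were left out, the log2 fold change stayed between 2.18 and 2.60 in WT and between 2.47 and 2.79 in Nox4 KO, and the call was kept each time.

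Notch3 (ENSMUSG00000038146; chromosome 17, 32120820 to 32166852, minus strand), the receptor typical of mural cells, moved the other way. It was at 3.50, 3.69 and 6.06 RPKM in WT control and at 0.881, 0.767 and 1.46 RPKM in WT TGF-β2. In Nox4 KO control it was at 2.65, 2.45 and 4.58 RPKM and in Nox4 KO TGF-β2 at 1.04, 0.851 and 1.48 RPKM. The groups did not overlap in either genotype, and the third library was the highest in each of the 4 groups. The log2 fold change was -2.04 in WT (SE 0.31, adjusted p = 0.00555, edgeR) and -1.43 in Nox4 KO (SE 0.30, adjusted p = 0.0177, edgeR). Notch3 was at place 141 from the bottom of 10743 genes in WT and 272 of 10809 in Nox4 KO. In Nox4 KO the call was lost without the first TGF-β2 library (log2 fold change -1.38, adjusted p = 0.0596, edgeR) or without the second (-1.27, adjusted p = 0.0700, edgeR). Of all genes tested, 16.5% and 10.7% passed in those fits, beside 30.3% with all libraries.

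Notch2 (ENSMUSG00000027878; chromosome 3, 98013527 to 98150361, plus strand) was the most abundant receptor RNA in each of the 12 libraries. It was at 10.3, 9.97 and 11.8 RPKM in WT control and at 9.81, 5.96 and 11.7 RPKM in WT TGF-β2, with a log2 fold change of -0.18 (SE 0.24, adjusted p = 0.622, edgeR). The low value of 5.96 belonged to the library with few long transcripts, and without it the log2 fold change was 0.06 (adjusted p = 0.632, edgeR). In Nox4 KO control it was at 10.5, 10.3 and 9.39 RPKM and in Nox4 KO TGF-β2 at 11.6, 11.03 and 10.7 RPKM. All stimulated Nox4 KO libraries were above all control ones, by a log2 fold change of 0.23 (SE 0.07) that missed the threshold without a block (adjusted p = 0.0611, edgeR). Same-numbered Nox4 KO libraries deviated together, and with the replicate number as a block the log2 fold change was again 0.23 and passed (adjusted p = 0.00992, edgeR).

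Notch1 (ENSMUSG00000026923; chromosome 2, 26457903 to 26516663, minus strand), the receptor best known from keratinocytes and T cells, was at 2.75, 2.63 and 3.61 RPKM in WT control and at 2.50, 1.33 and 2.28 RPKM in WT TGF-β2. The stimulated libraries were all below the controls, by a log2 fold change of -0.51 (SE 0.25, adjusted p = 0.191, edgeR), and by -0.27 (adjusted p = 0.202, edgeR) without the second TGF-β2 library. In Nox4 KO it was at 2.64, 2.60 and 2.28 RPKM in control and at 3.20, 2.62 and 1.53 RPKM after TGF-β2. These groups overlapped, and the log2 fold change was 0.05 (SE 0.27, adjusted p = 0.898, edgeR).

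As RPKM is scaled by length, the 4 receptors could be added up within a library. Their summed level was 18.9 ± 2.71 RPKM in WT control and 16.4 ± 4.76 RPKM in WT TGF-β2 (SD, n = 3), and 16.3 ± 0.335 and 17.7 ± 1.21 RPKM in Nox4 KO. The lower mean of WT TGF-β2 rested on the second library, since the sums were 17.96, 11.04 and 20.2 RPKM, and without it the mean was 19.1 RPKM. Within this sum, Notch4 went from 4.46% ± 1.76 to 25.6% ± 2.00 in WT and from 3.08% ± 0.727 to 16.7% ± 1.15 in Nox4 KO (SD, n = 3). Notch3 went from 22.97% ± 3.98 to 6.37% ± 1.28 and from 19.7% ± 6.80 to 6.44% ± 2.23. Notch2 kept between 53.7% and 65.3% of the receptor RNA in all 12 libraries. Within each library the ratio of Notch4 to Notch3 was 0.0888 to 0.286 in WT control and 3.21 to 5.42 in WT TGF-β2, and 0.0828 to 0.242 and 1.83 to 3.73 in Nox4 KO. No control library reached a ratio of any stimulated library. The ratio of Jag1 to the summed receptors likewise went from 0.454 to 0.647 in WT control to 2.46 to 2.96 in WT TGF-β2, and from 0.288 to 1.03 to 2.44 to 2.85 in Nox4 KO.

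**Figure D2:**
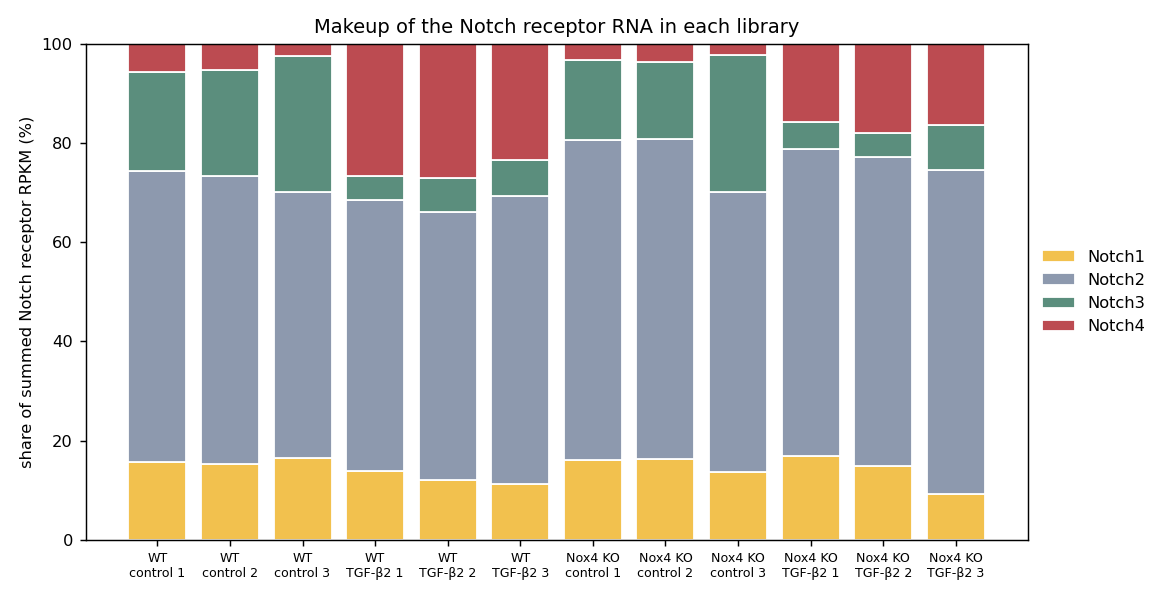
Share of each receptor in the summed RPKM of Notch1, Notch2, Notch3 and Notch4 (y axis, percent) in each of the 12 libraries. The Notch4 share was 2.28% to 5.72% in the 6 control libraries and, after TGF-β2, 23.3% to 27.0% in WT and 15.7% to 18.0% in Nox4 KO, while that of Notch3 was 15.4% to 27.6% in control and 4.81% to 8.98% after TGF-β2.

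Among the targets, Heyl changed most and Hes1, the most abundant, did not pass the test. Heyl (ENSMUSG00000032744; chromosome 4, 123233556 to 123249875, plus strand), a Hey-family repressor expressed in smooth muscle, received 8, 7 and 17 reads in WT control and 100, 100 and 73 in WT TGF-β2. In Nox4 KO it received 5, 5 and 8 reads in control and 133, 77 and 45 after TGF-β2. No stimulated library overlapped a control library. The levels were 0.0612 ± 0.0279 and 0.519 ± 0.0783 RPKM (SD, n = 3) in WT and 0.0346 ± 0.0121 and 0.435 ± 0.228 RPKM in Nox4 KO, under the limit of 1 RPKM. Fitted without this filter, Heyl rose by 3.14 on the log2 scale in WT (SE 0.33, adjusted p = 0.00117, edgeR) and by 3.76 in Nox4 KO (SE 0.59, adjusted p = 0.00882, edgeR). Without the filter it was also the only one of the 3 genes under 1 RPKM that passed in either genotype, beside 16.4% of all genes in WT and 19.6% in Nox4 KO.

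Hes1 (ENSMUSG00000022528; chromosome 16, 30064384 to 30067796, plus strand), the classical Notch target, was at 33.8, 35.5 and 32.5 RPKM in WT control and at 34.9, 49.8 and 35.9 RPKM in WT TGF-β2. The high value of 49.8 belonged to the library with few long transcripts, and the Hes1 transcript is short (1468 bases of merged exons). The log2 fold change was 0.28 (SE 0.14, adjusted p = 0.204, edgeR) with that library and 0.11 (adjusted p = 0.288, edgeR) without it. In Nox4 KO, Hes1 was at 36.3, 38.8 and 35.6 RPKM in control and at 34.0, 32.8 and 37.7 RPKM after TGF-β2. These libraries overlapped, and the log2 fold change was 0.0016 (SE 0.08, adjusted p = 0.990, edgeR).

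Hey2 (ENSMUSG00000019789; chromosome 10, 30832359 to 30842801, minus strand), a repressor with roles in heart and vessel development, was at 1.05, 1.65 and 1.78 RPKM in WT control and at 1.07, 1.46 and 1.43 RPKM in WT TGF-β2. In Nox4 KO it was at 0.881, 1.02 and 2.17 RPKM in control and at 0.804, 1.20 and 2.59 RPKM after TGF-β2. Differences between replicates exceeded those between the groups, and the third library of each Nox4 KO group was the highest. The log2 fold change was -0.14 (SE 0.23, adjusted p = 0.688, edgeR) in WT, -0.21 there without the second TGF-β2 library, and 0.27 (SE 0.52, adjusted p = 0.723, edgeR) in Nox4 KO. Hey1 (ENSMUSG00000040289; chromosome 3, 8663359 to 8667256, minus strand), its close relative, received 31 to 85 reads in WT control, 29 to 44 in WT TGF-β2, 45 to 58 in Nox4 KO control and 46 to 66 in Nox4 KO TGF-β2. All Hey1 groups overlapped, at 0.322 to 0.870 RPKM.

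**Figure D3:**
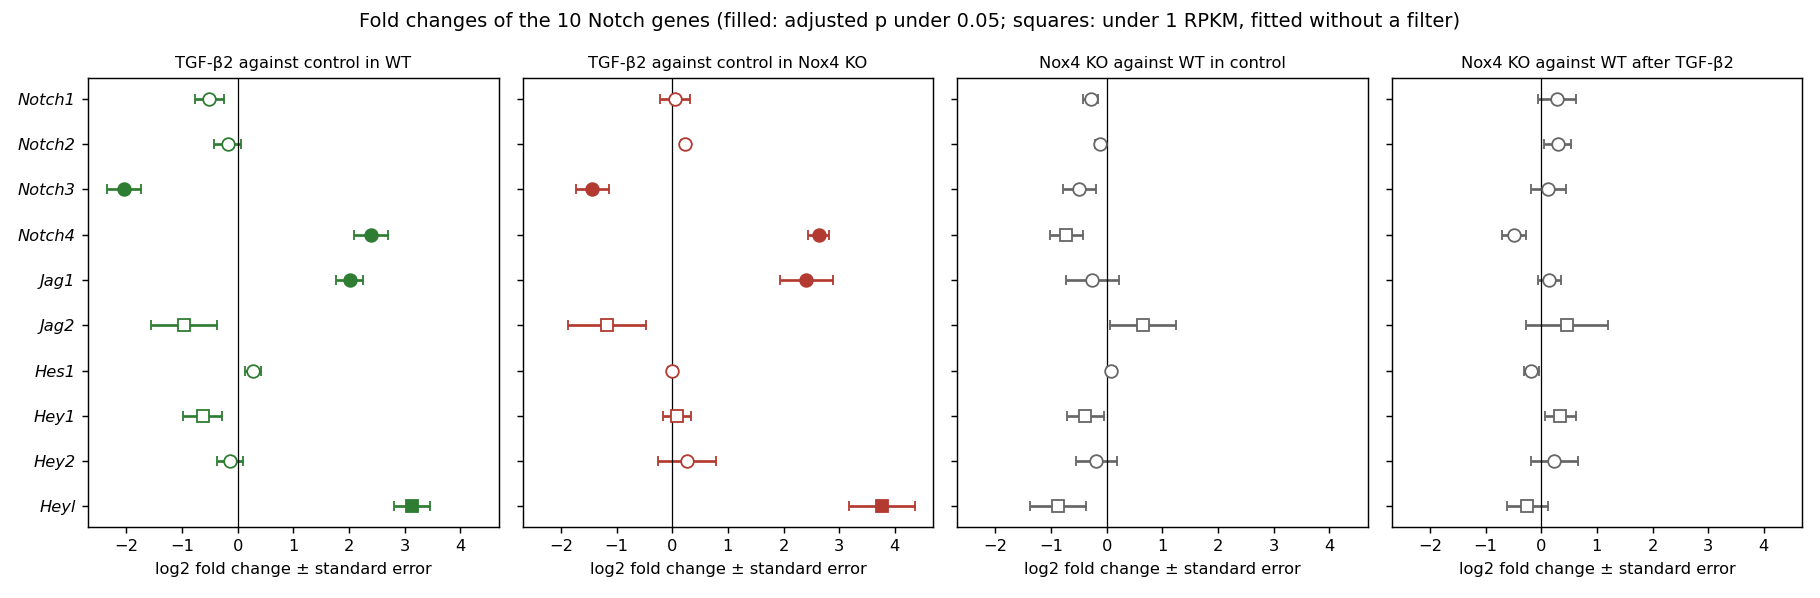
Log2 fold change ± standard error (x axis) of the 10 genes in the 4 comparisons, from edgeR's quasi-likelihood test, with filled symbols for adjusted p-values under 0.05 and squares for genes under 1 RPKM that were fitted without a filter. Jag1, Notch4 and Heyl were higher and Notch3 lower after TGF-β2 in both genotypes, and no symbol is filled for Nox4 KO against WT.

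Counted over all 10 genes, the TGF-β2 libraries lay entirely above the controls for 3 genes and entirely below for 2 in WT, and above for 4 and below for 1 in Nox4 KO. Of all genes tested, 20.3% lay entirely above and 24.9% below in WT, and 17% above and 31.5% below in Nox4 KO. Each such separation has p = 0.1 in a two-sided exact permutation test, the smallest that 3 libraries against 3 allow.

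The second WT TGF-β2 library had the lowest value of its group for Notch1, Notch2, Notch3, Notch4, Jag1 and Jag2, whose merged exons span 5106 to 10500 bases. It had the highest for Hes1, Hey1, Hey2 and Heyl. Jag2 had only 4 to 6 reads in this group. Without the second library, the log2 fold changes in WT were 2.19 for Jag1, 2.60 for Notch4 and -1.86 for Notch3, with adjusted p-values of 0.00314, 0.00353 and 0.0123 in edgeR's test. The part of the transcript length balance in the other values was not tested.

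**Figure D4:**
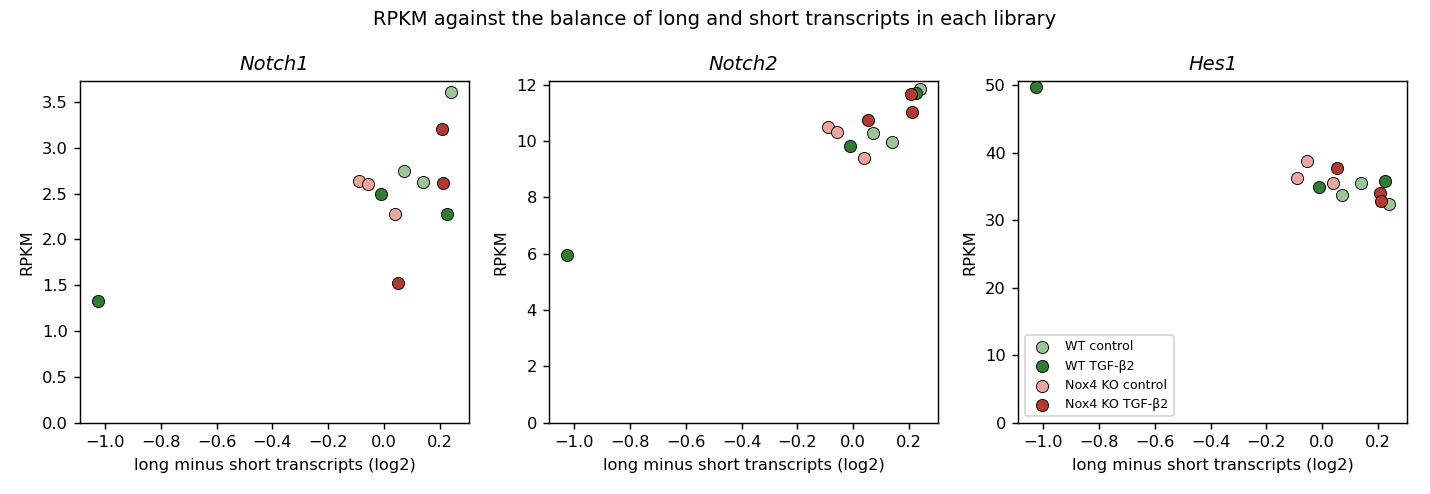
RPKM of Notch1, Notch2 and Hes1 (y axes, linear, from 0) against the balance of long and short transcripts (x axis, log2 of long minus short, relative to the mean of all libraries) in the 12 libraries. The second WT TGF-β2 library, at -1.026, had the lowest Notch1 and Notch2 and the highest Hes1 values of all 12.

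Genotype was the second question of the design, namely whether cells without functional Nox4 differ in these genes at rest or after TGF-β2. These comparisons share libraries with the previous ones. None of the 6 genes tested in control and none of the 7 tested after TGF-β2 passed edgeR's test, and neither did any of the 10767 and 10439 genes in all (0% and 0%). Unadjusted p-values under 0.05 were found for 596 genes (5.54%) in control and 336 (3.22%) after TGF-β2, and DESeq2 passed 9 genes higher and 19 lower in control and 8 higher and 8 lower after TGF-β2, none of them among the 10. In control, the log2 fold change of Nox4 KO against WT was -0.49 for Notch3 (SE 0.29), -0.29 for Notch1 (0.13), -0.26 for Jag1 (0.47), -0.19 for Hey2 (0.37), -0.12 for Notch2 (0.08) and 0.08 for Hes1 (0.08), with adjusted p-values between 0.830 and 0.946 in edgeR's test. Notch4 was under 1 RPKM in both control groups, at 0.812 ± 0.243 RPKM in WT and 0.4999 ± 0.109 RPKM in Nox4 KO (SD, n = 3), with overlapping libraries. Hes1 was the only gene of the 10 whose control libraries did not overlap, at 32.5 to 35.5 RPKM in WT and 35.6 to 38.8 RPKM in Nox4 KO, where 10.9% of all genes tested lay entirely above WT and 2.74% entirely below.

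After TGF-β2, the log2 fold change of Nox4 KO against WT was -0.48 for Notch4 (SE 0.21), 0.29 for Notch2 (0.25), 0.28 for Notch1 (0.35), 0.23 for Hey2 (0.42), -0.18 for Hes1 (0.14), 0.15 for Jag1 (0.20) and 0.13 for Notch3 (0.31), with adjusted p-values between 0.835 and 0.902 in edgeR's test. The libraries of the genotypes overlapped for all 10 genes, while 4.16% of all genes tested lay entirely above WT and 5.92% below. Notch4 was the gene with the lowest unadjusted p-value (0.0589), and its values were 2.98 to 4.77 RPKM in WT and 2.70 to 3.17 RPKM in Nox4 KO. Without the second WT library the WT values were 4.77 and 4.71 RPKM and no longer overlapped those of Nox4 KO. The log2 fold change was then -0.69 (SE 0.10, unadjusted p = 0.000635, adjusted p = 0.999, edgeR), where 340 genes in all (3.25% of 10451) had unadjusted p-values under 0.05. Without that library Notch1 and Notch2 came to 0.03 and 0.04, Hes1 to -0.03, Jag1 to -0.04, Notch3 to -0.07 and Hey2 to 0.28.

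The makeup of the receptor RNA was compared between the genotypes only after the shares were known. After TGF-β2, Notch4 made up 23.3% to 27.0% of the summed receptor RPKM in WT and 15.7% to 18.0% in Nox4 KO, where its mean was lower by 8.96 percentage points. The share of Notch2 was 54.0% to 58.1% in WT and 61.8% to 65.3% in Nox4 KO. Neither share overlapped between the genotypes, with p = 0.1 in a two-sided exact permutation test for each, the smallest that 3 libraries against 3 allow. This p-value only restates the lack of overlap, in shares picked after their values were seen. The shares of a library add up to a whole, so those of Notch4 and Notch2 are not independent. The shares of Notch1 and Notch3 after TGF-β2, and those of all 4 receptors in control, overlapped.

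Whether the response to TGF-β2 itself depended on genotype was tested by the interaction over all 12 libraries. None of the 7 genes passed, and 0 of 10890 genes passed in all (0%) in edgeR's test, with 290 (2.66%) at an unadjusted p-value under 0.05 and 6 lower and 0 higher in DESeq2. The response in Nox4 KO minus that in WT was 0.62 for Notch3 (SE 0.46), 0.57 for Notch1 (0.40), 0.42 for Notch2 (0.28), 0.42 for Hey2 (0.61), 0.41 for Jag1 (0.56), 0.25 for Notch4 (0.38) and -0.26 for Hes1 (0.16) on the log2 scale, with adjusted p-values between 0.850 and 0.892. Without the second WT TGF-β2 library they came to 0.42 for Notch3, 0.32 for Notch1, 0.16 for Notch2, 0.47 for Hey2, 0.22 for Jag1, 0.04 for Notch4 and -0.11 for Hes1, so those of Notch1, Notch2, Jag1, Notch4 and Hes1 shrank by over 1.5 times. Other libraries mattered too. The value of Jag1 was 0.08 without the first Nox4 KO control library and 1.09 without the third (unadjusted p = 0.0119, adjusted p = 0.745, edgeR). Without single libraries, Notch1 reached 0.82 and Notch2 0.64. With the replicate block the value of Notch3 was 0.65 with an SE of 0.14 (unadjusted p = 0.00192, adjusted p = 0.517, edgeR), where 833 genes in all (7.65%) had unadjusted p-values under 0.05. A p-value that misses the threshold does not show that the genotypes responded alike.

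The other genes of the pathway were described with a list of 67 genes in 8 roles. In WT 49 of them were tested, of which 3 were higher and 7 lower after TGF-β2 (20.4%, beside 22.9% of all genes tested). In Nox4 KO, 7 of 49 were higher and 10 lower (34.7%, beside 30.3%), and with the replicate block 9 were higher and 17 lower (26 of 49), beside 54.0% of all genes in that fit. The median log2 fold change of the list was -0.10 in WT and -0.01 in Nox4 KO. In the interaction, 0 of the 50 genes tested passed in edgeR's test, so a call in 1 genotype alone does not show a difference between them.

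Among the non-canonical ligands, Ccn3, a matricellular protein that binds Notch1, fell most. It went from 26.1 ± 14.1 to 3.84 ± 1.15 RPKM in WT (log2 fold change -2.71, adjusted p = 0.00721, edgeR) and from 22.8 ± 10.6 to 3.29 ± 0.705 RPKM in Nox4 KO (log2 fold change -2.71, adjusted p = 0.00619, edgeR; SD, n = 3). The elastic fibre protein Mfap2 fell in WT (-1.31) and had a fold change of -1.51 in Nox4 KO that did not pass (adjusted p = 0.0667, edgeR). The Delta-like homologues Dlk1 (-0.97) and Dlk2 (-1.12) fell in Nox4 KO. In WT Dlk1 was at -0.65 (adjusted p = 0.397, edgeR), and Dlk2 was not tested.

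Of the genes that prepare or cleave the receptor, Furin, the convertase that cuts it on its way to the surface, rose by 0.71 in WT (adjusted p = 0.00494, edgeR) and by 0.80 in Nox4 KO (adjusted p = 0.00273, edgeR). Its level went from 47.0 ± 1.46 to 74.7 ± 5.83 RPKM in WT (SD, n = 3). Lfng, a glycosyltransferase that alters which ligands a receptor answers to, rose by 0.90 in WT (adjusted p = 0.0302, edgeR) and was at 0.46 in Nox4 KO (adjusted p = 0.0570, edgeR). Of the γ-secretase subunits, Aph1b fell in WT (-0.67) and Nox4 KO (-0.45) and Psen2 fell in Nox4 KO (-0.46), while the protease genes Adam10 and Adam17 and the subunits Ncstn, Psenen and Aph1a did not pass in either genotype. The endocytosis genes Mib1, a ligase needed by the ligand-sending cell (0.48), Numb (0.29) and Itch (0.37), which lower receptor levels, rose in Nox4 KO, and were at 0.09, 0.10 and -0.02 in WT, where they did not pass.

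In the nucleus, Rbpj, the DNA-binding partner of all 4 receptors, fell from 6.17 ± 0.613 to 3.94 ± 0.435 RPKM in WT (log2 fold change -0.61, adjusted p = 0.0130, edgeR) and from 7.14 ± 1.22 to 4.25 ± 0.286 RPKM in Nox4 KO (-0.66, adjusted p = 0.0134, edgeR; SD, n = 3). The acetyltransferase Kat2b fell by 0.89 in WT and by 0.66 in Nox4 KO on the log2 scale, and the other 6 coactivator genes tested did not pass in either genotype. Groucho corepressors, which Hes and Hey proteins recruit, moved in opposite directions. Tle2 fell by 1.76 on the log2 scale in both genotypes (adjusted p = 0.000970 in WT and 0.00125 in Nox4 KO, edgeR), from 11.7 ± 2.31 to 3.34 ± 0.289 RPKM in WT (SD, n = 3). Tle3 fell by 0.59 in WT and by 0.47 in Nox4 KO, and Tle1 rose by 0.62 and by 0.33. The corepressor Ctbp2 rose by 0.39 in Nox4 KO, with 0.26 in WT that did not pass. Of the remaining Hes genes and the target Nrarp, 5 of 6 were under 1 RPKM, with at most 10 reads for Nrarp in any library, and Hes6 fell in Nox4 KO (-0.58).

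**Figure D5:**
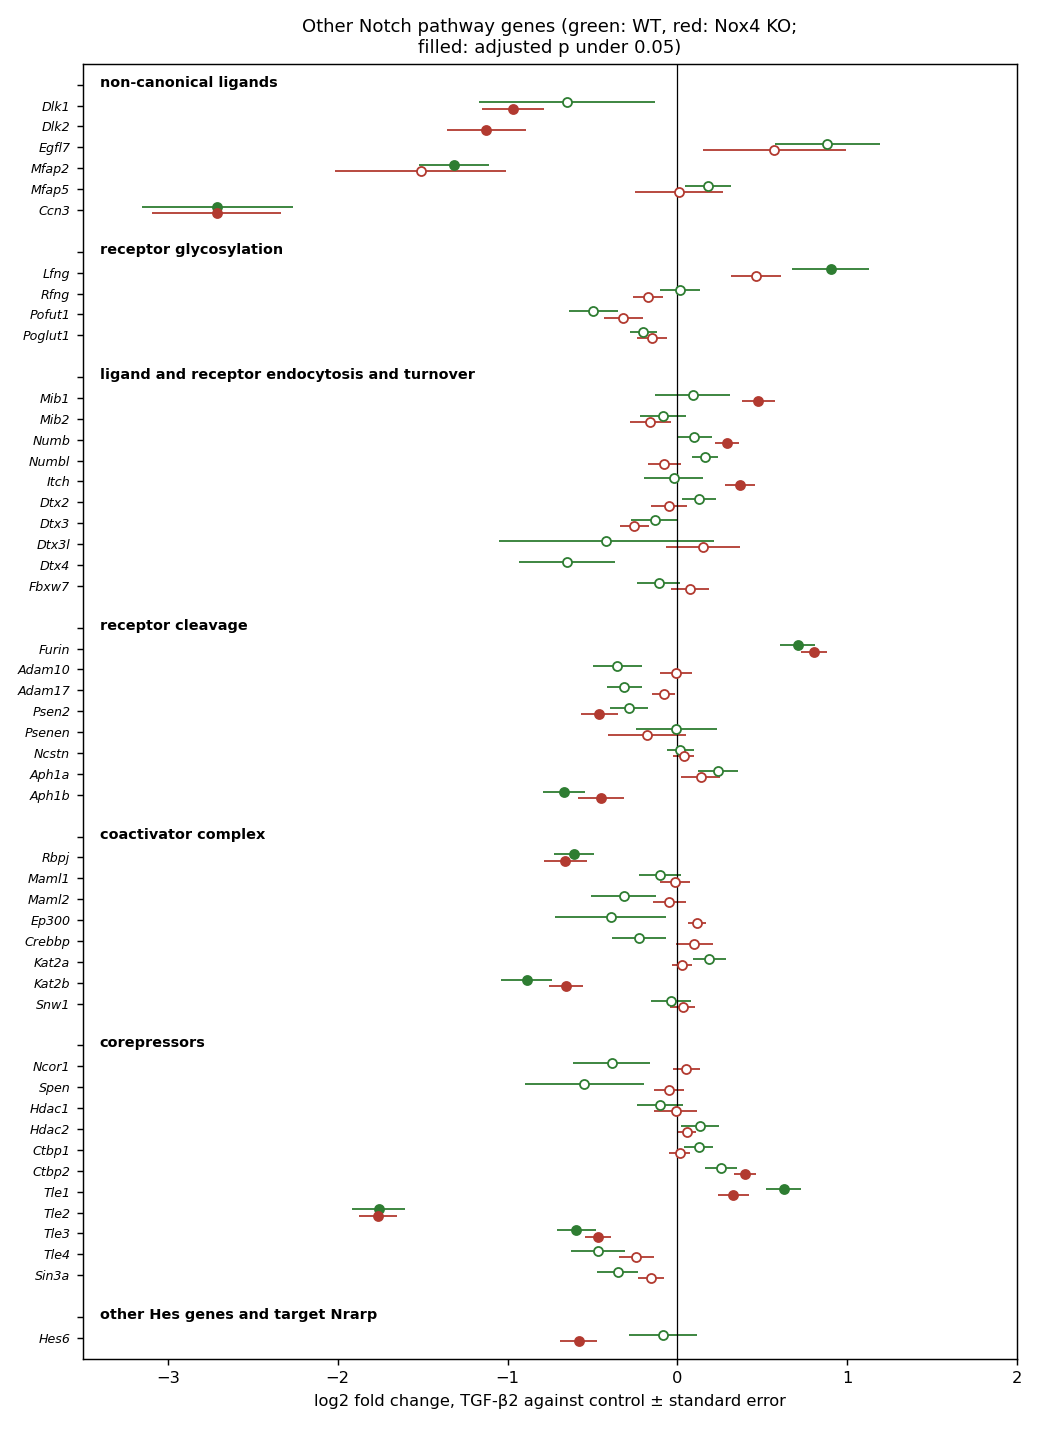
Log2 fold change ± standard error (x axis) of TGF-β2 against control for tested genes of the pathway list, by role, in WT (green) and Nox4 KO (red), from edgeR's quasi-likelihood test, with filled symbols for adjusted p-values under 0.05. Furin and Tle1 were filled on the right in both genotypes, and Ccn3, Tle2, Tle3, Rbpj, Kat2b and Aph1b on the left.

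Genes whose log2(CPM + 0.5) followed a Notch gene most closely over the 12 libraries were named by Pearson's r among 10890 genes, as a description. The libraries share the TGF-β2 treatment, so any gene that responded strongly takes part. Notch3 was most like Slit2 (0.988), Dlg3 (0.987) and Dnajc18 (0.986), and after subtracting the group means r was still 0.951, 0.987 and 0.968. Notch4 was most like Furin (0.986), Abcg1 (0.982) and Loxl2 (0.977), with 0.764, 0.686 and 0.782 within groups. Jag1 was most like Ubqln1 (0.971), Abtb2 (0.969) and Lman1 (0.968), with 0.884, 0.777 and 0.939 within groups. Notch1 was closest to Dcp2, Crebbp and Sik3 (0.926 to 0.949) and Notch2 to BC005561, Kmt2a and Nipbl (0.967 to 0.976). Hes1 was closest to Rps10, Rplp1 and Map2k2 (0.963 to 0.976). The second WT TGF-β2 library held the extreme value of Notch1, Notch2 and Hes1, and over the other 11 libraries r with the same genes was 0.863 to 0.965 for Notch1, 0.774 to 0.844 for Notch2 and 0.822 to 0.898 for Hes1. Hey2 was closest to Adra1b (0.960), Rgs4 (0.943) and Kcnab1 (0.943).

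Markers of other cell types were read beside these results, since in bulk RNA fewer cells of a type and less RNA per cell cannot be told apart. Of 10 endothelial markers, only Kdr reached 1 RPKM in any group. Their summed level was 2.71 to 4.45 RPKM in WT control and 1.81 to 2.66 RPKM in WT TGF-β2, and 3.18 to 5.61 and 2.53 to 3.12 RPKM in Nox4 KO, so it did not rise with Notch4. The defining markers Pecam1 and Cdh5 were at most at 0.133 and 0.0946 RPKM in any library. Of 9 mural markers, 5 reached 1 RPKM in each group, and their summed level was 97.5 to 143 RPKM in WT control and 150 to 162 RPKM in WT TGF-β2, and 122 to 139 and 157 to 200 RPKM in Nox4 KO. The pericyte markers Rgs5, Kcnj8, Abcc9 and Higd1b stayed at or under 0.475 RPKM in every library. Mcam was the largest part of the mural sum in each group, and Mcam and Cspg4 moved with Jag1 and Heyl. Mcam was at 47.7 to 79.3 RPKM in WT control and 88.4 to 118 RPKM in WT TGF-β2, and 61.8 to 71.4 and 78.9 to 138 RPKM in Nox4 KO. Cspg4 was at 4.44 to 8.77 RPKM in WT control and 20.2 to 36.5 RPKM in WT TGF-β2, and 5.63 to 13.4 and 21.4 to 53.1 RPKM in Nox4 KO. The smooth muscle myosin Myh11, the next largest part in control, moved with Notch3 instead, from 35.6 to 46.3 RPKM in WT control to 16.3 to 22.0 RPKM in WT TGF-β2, and from 37.9 to 47.9 to 18.0 to 36.8 RPKM in Nox4 KO. The remaining mural markers at 1 RPKM, Ndufa4l2 and Des, had overlapping ranges in both genotypes. The part of these markers in the results was not tested. Of 10 keratinocyte markers only Sfn reached 1 RPKM, with summed levels of 2.17 to 2.78 RPKM in the control libraries and 8.54 to 16.2 RPKM after TGF-β2. Macrophage markers (6 or 7 of 9 at 1 RPKM) summed to 15.5 to 145 RPKM and the ranges of the 4 groups overlapped. Between Nox4 KO libraries of the same number, however, the macrophage sum was lower after TGF-β2 in 3 of 3 pairs, at 112 and 83.3, 39.2 and 29.1, and 22.4 and 15.5 RPKM. In WT it went from 52.6 to 41.5, 28.7 to 25.0 and 145 to 105 RPKM between libraries of the same number. No melanocyte or Schwann cell marker of 7 reached 1 RPKM. The part of these cells in the results was not tested.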

How the data were processed

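RNA from 12 libraries of primary skin fibroblasts was sequenced as single-end reads. Per the methods and the labels, the authors called bases with CASAVA 1.8.2, mapped reads to GRCm38 with STAR 2.4, discarded those with several locations, and used featureCounts 1.4.6 to count the reads over each gene's exons, merged across its protein-coding isoforms. The deposited values are these raw counts per gene, with no normalization or filter. Use of strand in counting is not given in the sources used here, but no exon of the 10 genes overlapped that of another counted gene.

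Groups and replicate numbers came from the labels. The 21556 genes were matched by Ensembl identifier to GENCODE M21, and RPKM was computed from merged exon lengths (protein-coding transcripts for 21099 genes, all transcripts for 457) and library totals. Totals of 35118344 to 43796260 set the precision, and for a gene of 2 kb a count of 3, which a count of 0 allows, is at most 0.0427 RPKM. This covers counting error only. Replicates differed by more than sampling noise (chi-square per gene of 17.3 or more), so all were kept.

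The 4 comparisons of pairs of groups were each fitted on their own 6 libraries with edgeR 4.0.16 (R 4.3.3, limma 3.58.1), TMM factors, the quasi-likelihood test and Benjamini-Hochberg adjustment over all genes with a mean of at least 1 RPKM in at least 1 group. A gene passed at an adjusted p-value under 0.05. The interaction used all 12 libraries. Alternatives were DESeq2 1.42.0, other scaling factors, filters and samples in the fit, the legacy test, a fold limit of 2, a replicate block, and each library left out in turn. The block without a filter and DESeq2 without a filter were added after seeing the data. The scripts were tested on simulated data. Same-numbered Nox4 KO control and TGF-β2 libraries deviated together from their group means (r of 0.763, 0.688 and 0.741 over 10890 genes), so they were taken as paired on this check alone. The main fits have no block, and the blocked value is given where it changed a call or a count by over 1.5 times, and for the interaction of Notch3. The genes described, the gene lists and the tests were chosen with earlier results of these data known. Named beside the 10 genes and Nox4 were list genes that passed in at least 1 comparison and the 3 genes most like each gene over the libraries. Other list genes were named after their values were seen. Some genes of the list are not reported here.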

Additional observations from a re-analysis of the deposited data

How the results depend on the processing

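Jag1, Notch4 and Notch3 kept their direction under each alternative in both genotypes, and in WT they passed under each. Of the 10 genes, 3 passed after TGF-β2 in Nox4 KO, beside 30.3% of all genes tested. With the replicate block and no filter or with DESeq2 and no filter, 5 did, Heyl and Notch2 added. In those fits 38.7% and 24.6% of all genes passed. With each library left out in turn, 1 to 3 passed in Nox4 KO, beside 10.7% to 32.5% of all genes. The 1 was Notch4 without the second TGF-β2 library, where the share of all genes was the lowest (10.7%). The pathway list had 10 genes passing in WT and 17 in Nox4 KO. In WT there were 16 with all 12 libraries in the fit, beside 31.6% of all genes, and 3 at a fold change of at least 2, beside 7.74%. In Nox4 KO there were 26 with the replicate block (54.0% of all genes), 3 at a fold change of at least 2 (6.82%), and 9 to 18 with each library left out in turn (10.7% to 32.5%), with 9 or 10 without the first or second library of either Nox4 KO group. In Nox4 KO against WT control, 1 list gene, Spen, passed in DESeq2, beside 0.26% of all genes. In edgeR's test its log2 fold change was -0.26 and did not pass (adjusted p = 0.830). The causes of these changes were not tested.

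Reversals of direction arose only for values that did not pass. In Nox4 KO after TGF-β2, Notch1 came to -0.0113 with upper-quartile factors, -0.0351 with library size only and -0.000145 with the replicate block, and Hes1 to -0.0600 with upper-quartile factors and -0.0842 with library size only. Library size alone moved the median of all genes by -0.102 there, and 1044 genes were higher and 2135 lower, beside 1644 and 1626 with TMM, 1217 and 1978 with upper-quartile factors, and 2714 and 3118 with the block. With each library left out in turn, log2 fold changes after TGF-β2 ranged from -0.389 to 0.0636 for Notch2 and from -0.34 to 0.0020 for Hey2 in WT, and from -0.19 to 0.30 for Notch1, from -0.0530 to 0.0522 for Hes1 and from -0.33 to 0.75 for Hey2 in Nox4 KO. For Nox4 KO against WT they ranged from -0.963 to 0.0624 for Jag1 and from -0.672 to 0.0390 for Hey2 in control, and from -0.11 to 0.47 for Notch3, from -0.0425 to 0.26 for Jag1 and from -0.36 to 0.54 for Hey2 after TGF-β2. The interaction of Hey2 ranged from -0.18 to 0.89.

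Same-numbered WT control and TGF-β2 libraries correlated by 0.0619, 0.415 and 0.525. Each WT TGF-β2 library had its highest correlation with the control library of its own number. The first control library, however, was closest to the second TGF-β2 library (0.315). As the first pair is under 0.1, these numbers were not taken as a pairing. With the replicate block 3 of the 10 genes and 13 list genes passed in WT, beside 28.8% of all genes tested. Across genotypes the block left the counts of passing genes at 0. Apart from Notch2 in Nox4 KO, the block changed no call among the 10 genes. Depth limits Jag2 most, with 3 to 25 reads per library, and no difference in it was detectable.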
